A study of Mus musculus with 12 samples.

Results

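The BCL2 family decides whether the mitochondrial pathway of cell death is set off, and its mRNAs were followed here in the neurite and soma fractions of mouse sensory ganglion cultures, which hold neurons and other cells. The members are 10 genes, taken by gene name from the deposited count tables out of 16617 genes present in both tables: the survival genes Bcl2, Bcl2l1, Bcl2l2 and Mcl1, the pore formers Bax and Bak1, and the BH3-only genes Bbc3, Bcl2l11, Bid and Bad. The choice rested on function and on the description of Bcl2 mRNA as a target of nucleolin, and used no measured value. Earlier results of these data were known when the choice was made. Counts were available for 27 transcripts of these genes in both tables, and all 10 genes passed the filter on low counts.

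Dorsal root ganglion cells of adult C57B6 mice, from 1 mouse per culture, were grown for 3 days on inserts with pores of 1 µm. The pores are meant to let neurites extend through while the cell bodies stay behind. The genotype was GAR+/- (het) or GAR+/+ (WT), where GAR stands for the domain of nucleolin, an RNA-binding protein, that is rich in glycine and arginine. Ribosomal RNA was depleted and stranded libraries were sequenced, 3 each from het neurites, WT neurites, het soma and WT soma. The labels describe 3 independent biological repeats, do not give the structure of the allele, and describe recovery of the cells through a Percoll cushion but no sort for neurons.

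Survival proteins of the family hold BAX and BAK in check at the mitochondrial outer membrane, and BH3-only proteins relieve that check or activate the pore formers directly. Once the pore opens, cytochrome c leaves the mitochondrion, the apoptosome forms and caspases are activated. In sensory neurons this pathway is known as the route by which loss of neurotrophin support kills the cell, and in axons it also takes part in local degeneration. In human cells, nucleolin has been described to bind AU-rich elements in the 3′ untranslated region (UTR) of BCL2 mRNA.

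Because AU-rich elements are the described nucleolin sites in the human mRNA, the stretches of the mouse 3′ UTRs that are richest in them are shown first. They were read from the GRCm38 genome and the GENCODE M21 annotation, on the strand of the transcript, and capitals mark every ATTTA, the core pentamer of such elements. The Bcl2 stretch covers bases 232 to 261 of the 3′ UTR on chromosome 1 (minus strand), that of Mcl1 bases 1767 to 1796 on chromosome 3 (plus strand), that of Bcl2l2 bases 2589 to 2618 on chromosome 14 (plus strand), and that of Bcl2l11 bases 3021 to 3050 on chromosome 2 (plus strand).
Bcl2: tATTTAggaaaaaaaagATTTATTTATTTA
Mcl1: ATTTAtccttgatcatagtttgcttATTTA
Bcl2l2: tgtatttttATTTAataATTTAtaaatgcc
Bcl2l11: tgtatATTTAttttccgcttATTTAaatgt
The Bcl2 stretch holds 4 pentamers, 3 of them overlapping in a row, and each of the other stretches holds 2.

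Bcl2 carried 15 ATTTA pentamers in a 3′ UTR of 5086 bases, or 2.95 per kb. That density was above those of 84.6% of the 977 annotated 3′ UTRs within 25% of its length, whose median was 1.7 per kb and of which 98.7% held at least 1 pentamer. The longer core TTATTTATT, which contains the pentamer, was searched on the transcript strand as well and occurred at 2 places in Bcl2, at bases 251 to 259 and 3330 to 3338. It was in 20.5% of the 3′ UTRs of similar length and in none of the other members whose 3′ UTR was searched. Capitals mark it in the following lines.
Bcl2, first: aaaaaagatTTATTTATTtaagacagt
Bcl2, second: ggcatattcTTATTTATTacatctaag
Mcl1 had 8 pentamers in 2353 bases, 3.4 per kb, above 87.8% of 2765 3′ UTRs of similar length. Bcl2l2 with 1.48 per kb and Bcl2l11 with 1.42 per kb lay below the medians of their length classes. Bax, Bak1, Bbc3, Bid and Bad had 0 pentamers. Of the 3′ UTRs of similar length, 23.2% held a pentamer for Bax (165 bases) and 40.6% for Bad (375 bases), so 0 was the usual value there. For Bak1, Bbc3 and Bid these shares were 75.9%, 70.9% and 82.5%. For Bcl2l1 no value was taken because its most abundant transcript has no annotated 3′ UTR. The Bak1 value is that of Bak1-202, its protein-coding transcript. A match describes letters in the annotated window only.

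Levels of different genes were compared per length, in TPM, which is the count per kb of annotated transcript scaled to the same total in each library. Bax was the most abundant member, with a mean of 259 ± 39.9 TPM over the 12 libraries, followed by Mcl1 with 148 ± 22.4 TPM and Bcl2 with 47.6 ± 10.9 TPM (SD). On this scale the libraries of these 3 genes did not overlap with one another, nor did those of Bcl2 overlap with those of Bbc3, the next in order with 19.3 ± 4.04 TPM. Bad followed with 18.9 ± 3.27 TPM, which did not differ from Bbc3 beyond the spread between libraries.

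The order went on with Bcl2l1 at 10.6 ± 1.65 TPM and Bcl2l2 at 6.97 ± 1.35 TPM, whose libraries overlapped. Bcl2l11, which encodes BIM, had 5.4 ± 1.02 TPM and overlapped with Bcl2l2. Bid had 2.23 ± 0.603 TPM and did not overlap with Bcl2l11, and Bak1 was lowest with 0.938 ± 0.436 TPM. Of the pore formers, Bax had more mRNA per length than Bak1 in every library.

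This order depended in part on the length used. Over all transcripts and the sum of the 12 libraries, the median was 1790.7 counts per kb for genes with 1 annotated transcript and 225.8 counts per kb for transcripts of genes with 5 or more. Per kb of bases that no other transcript of the gene shares, these medians were 1791.5 and 767.7. These medians are per transcript and do not show what counting does to levels summed per gene. How reads that fit several transcripts were counted is not given, and its part was not tested. Levels were also computed per unshared base, an alternative added after the data were seen. On that scale Bcl2l2 stood at 20.7 ± 1.94 TPM and Bbc3 at 33.4 ± 7.23 TPM, beside means of 247 TPM for Bax, 188 TPM for Mcl1 and 45.3 TPM for Bcl2. The separation of the leading genes was lost there: Bax, with 197 to 312 TPM, overlapped with Mcl1, with 156 to 234 TPM, and Bcl2, with 34.5 to 61.7 TPM, overlapped with Bbc3, with 17.3 to 44.4 TPM. In het soma Bbc3 lay above Bcl2 in all 3 libraries, with means of 41.5 and 35.3 TPM. Comparisons of 1 gene between groups do not use its length.

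**Figure D1:**
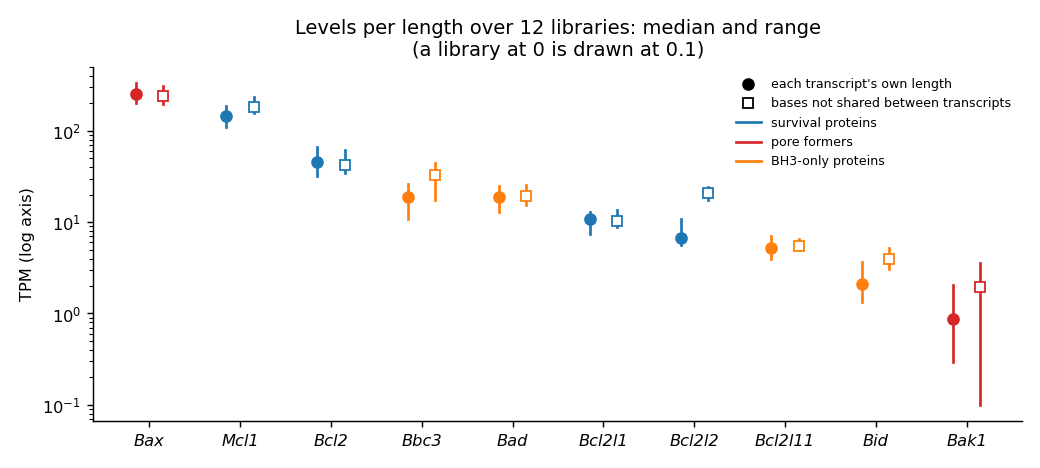
Levels of the 10 members in TPM on a log axis, as the median (symbol) and range (line) of the 12 libraries, by each transcript's own length (filled) and by bases not shared with other transcripts of the gene (open). Bax, Mcl1 and Bcl2 have the highest medians in both, with ranges that overlap on unshared bases (Bax with Mcl1, Bcl2 with Bbc3), and Bak1 has the lowest median in both, with 1 library at 0 on unshared bases drawn at 0.1.

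The libraries held 14965973 to 32434916 counts. Bcl2 rested on 2661 to 4631 counts per library and Mcl1 on 3921 to 6571, whereas Bak1 rested on 5 to 46 counts and Bid on 15 to 37. Ncl, the gene of nucleolin itself, averaged 380 ± 46.9 CPM (counts scaled to a common library size) in het neurites and 400 ± 72.1 CPM in WT neurites, with libraries that overlapped. In soma it had 251, 258 and 290 CPM in het cultures and 218, 237 and 239 CPM in WT cultures, without overlap. That difference did not pass the test. The tables do not show whether the allele changes its protein. All 10 neuronal markers were measured in every group, and their summed level was 13267 to 17130 CPM in het neurites, 11076 to 14547 CPM in WT neurites, 16420 to 19934 CPM in het soma and 14847 to 17137 CPM in WT soma. Markers of satellite glia were also present, with 1314 to 1424 CPM in het neurites, 1410 to 1631 CPM in WT neurites, 1161 to 1398 CPM in het soma and 1299 to 1453 CPM in WT soma.

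Neurites differed from soma in 3 of the 10 members when both genotypes were averaged: Bcl2 and Mcl1 were higher in neurites and Bbc3 was lower, while the other members did not pass the test. Of all 15990 genes tested, 12.2% passed, 7.33% higher and 4.87% lower in neurites. The median log2 fold change of the members was 0.07, with a range of -0.44 to 0.47, beside a median of -0.003 over all genes.

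Bcl2, the founding survival gene of the family, had 171, 151 and 147 CPM in het neurites and 207, 210 and 180 CPM in WT neurites. In soma it had 121, 121 and 122 CPM in het cultures and 133, 135 and 134 CPM in WT cultures. All 6 neurite libraries lay above all 6 soma libraries. The averaged log2 fold change was 0.47 ± 0.06 (SE), a 1.38-fold difference, with an adjusted p of 0.000523 in edgeR's quasi-likelihood test, and it was called under 17 of 17 alternatives.

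Mcl1, a survival gene whose protein turns over quickly, had 243, 216 and 228 CPM in het neurites and 280, 264 and 256 CPM in WT neurites. Soma libraries had 193, 193 and 200 CPM in het cultures and 197, 205 and 227 CPM in WT cultures. Within each genotype, every neurite library lay above every soma library, and over both genotypes the lowest het neurite library (216 CPM) lay below the highest WT soma library (227 CPM). The averaged log2 fold change was 0.29 ± 0.06, a 1.22-fold difference (adjusted p = 0.00889, edgeR), and it too was called under 17 of 17 alternatives.

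Bbc3, which encodes the BH3-only protein PUMA, a target of p53, went the other way. It had 13.2, 13.1 and 13.8 CPM in het neurites and 7.42, 13.5 and 10.4 CPM in WT neurites, against 15.8, 19.3 and 18.3 CPM in het soma and 12.7, 15.1 and 15.5 CPM in WT soma. The het libraries of neurites and soma did not overlap, and those of WT did. The averaged log2 fold change was -0.44 ± 0.12 (adjusted p = 0.0306, edgeR), called under 9 of 17 alternatives. Leaving out het neurites 1 or 2, het soma 2 or 3, WT neurites 1 or 3, or WT soma 2 or 3 gave log2 fold changes of -0.44, -0.43, -0.41, -0.43, -0.35, -0.44, -0.42 and -0.41 with adjusted p of 0.0654, 0.051, 0.0839, 0.065, 0.0507, 0.0568, 0.0731 and 0.0653, all above 0.05.

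**Figure D2:**
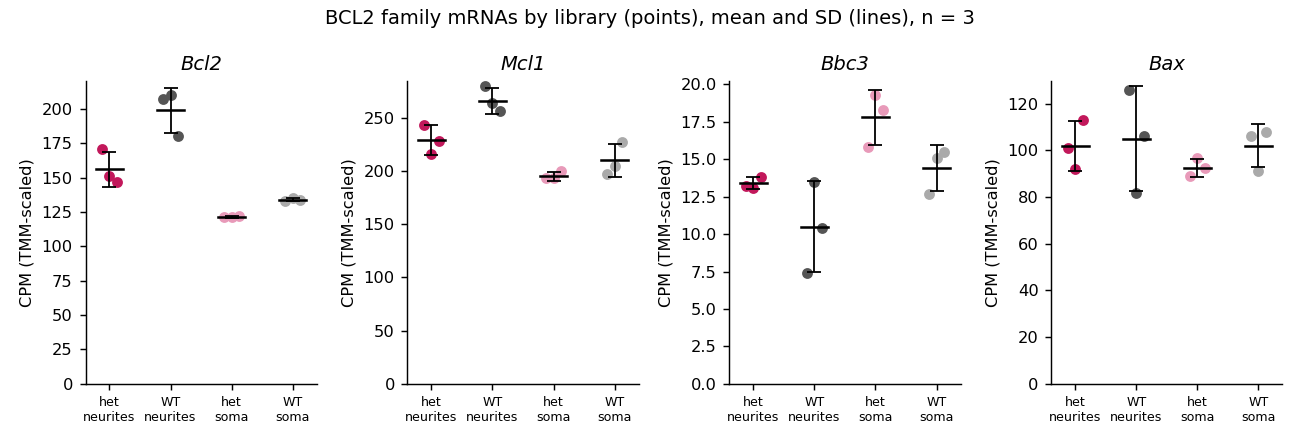
CPM of Bcl2, Mcl1, Bbc3 and Bax in each library (points) of het neurites, WT neurites, het soma and WT soma, with the mean and SD (black lines, n = 3 per group). The 6 neurite libraries of Bcl2, from 147 to 210 CPM, stand above its 6 soma libraries, from 121 to 135 CPM, while the groups of Bax overlap.

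Within WT cultures 2 members passed, both higher in neurites, where 3.1% of all genes passed, 2.41% higher and 0.688% lower. Bcl2 averaged 199 ± 16.5 CPM in neurites and 134 ± 1.19 CPM in soma (SD, n = 3 each), a log2 fold change of 0.57 ± 0.09 (adjusted p = 0.00523, edgeR). Mcl1 averaged 266 ± 12.3 CPM in neurites and 210 ± 15.5 CPM in soma, which is 0.34 ± 0.09 on the log2 scale (adjusted p = 0.048). The call of Mcl1 was lost without WT neurites 1 (adjusted p = 0.153) or 3 (0.0676), and without WT soma 1 (0.163), 2 (0.196) or 3 (0.062). For Bbc3 the value was -0.46 ± 0.18 (adjusted p = 0.158, edgeR), and it was called under 3 of 12 alternatives. Among these were the fit with the replicate number as a block, at -0.48 (adjusted p = 0.0467), which called 1510 genes in place of 495, and the fit without WT neurites 2, at -0.68 (adjusted p = 0.0306).

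Within het cultures no member passed, where 0.638% of all genes passed, 0.544% higher and 0.0938% lower in neurites. Bcl2 averaged 156 ± 12.9 CPM in neurites and 121 ± 0.707 CPM in soma, a log2 fold change of 0.37 ± 0.09 (adjusted p = 0.0829, edgeR) with no overlap between libraries, and DESeq2 called it (0.38, adjusted p = 0.00552). For Mcl1 the value was 0.23 ± 0.09 (adjusted p = 0.245) and for Bbc3 -0.42 ± 0.17 (adjusted p = 0.282), both without overlap. Whether the 2 genotypes differed in their neurite-to-soma change was tested by the interaction, which called no gene at all (0% of 15990) against 202 genes at an unadjusted p under 0.05 and 0 genes in DESeq2. For Bcl2 the interaction was -0.21 ± 0.13 on the log2 scale, with an unadjusted p of 0.123, and so a difference between the genotypes was not shown.

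Markers of other cell types moved in the same comparison. Of the 10 neuronal markers, 5 were lower in neurites and none was higher, with a median averaged log2 fold change of -0.38. Of the 7 satellite glial markers, 4 were higher and none lower (median 0.43), and of the 6 tested of 7 Schwann cell markers, 2 were higher and none lower (median 0.39). Sox10, a transcription factor of the glial lineage, had 238 ± 30.4 CPM in het neurites, 371 ± 27.5 CPM in WT neurites, 186 ± 11.9 CPM in het soma and 262 ± 22.5 CPM in WT soma. Not all glial markers lay higher in neurites: the lowest value was -0.30 among the satellite glial markers and -0.13 among those of Schwann cells. S100b had 441 ± 62.4 CPM in het neurites and 501 ± 75.1 CPM in het soma. In WT cultures it had 368 ± 60.9 CPM in neurites and 487 ± 59.9 CPM in soma. The 5 proliferation markers had a median of 0.44, from -0.14 to 0.65, with no call. Of these, Mki67 had 438 ± 112 CPM in WT neurites and 283 ± 66.4 CPM in WT soma. In het cultures it had 176 ± 71.1 CPM in neurites and 129 ± 24.4 CPM in soma. Whether cell bodies reached the neurite fraction was not tested. In bulk libraries a change in the number of cells of a type and a change in RNA per cell cannot be told apart, and the part of glial RNA in the values of Bcl2 and Mcl1 was not tested.

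The remaining members did not pass between neurites and soma. Bcl2l1, which encodes the survival protein BCL-XL, averaged 6.13 ± 0.949 CPM in neurites and 5.36 ± 0.456 CPM in soma (SD, n = 6 each), a log2 fold change of 0.19 ± 0.12. Bcl2l2, which encodes BCL-W, a survival protein described in sensory axons, averaged 8.29 ± 0.523 CPM in neurites and 9.18 ± 0.792 CPM in soma (-0.15 ± 0.10). Bax averaged 103 ± 15.8 CPM in neurites and 97.1 ± 8.03 CPM in soma. Its log2 fold change was 0.09 ± 0.10, or between -0.10 and 0.28 at 2 SE.

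Among the BH3-only genes, Bcl2l11 averaged 9.29 ± 0.95 CPM in neurites and 9.28 ± 0.987 CPM in soma. Bad, whose protein is held inactive by survival kinases, averaged 9.74 ± 1.71 CPM in neurites and 9.41 ± 1.62 CPM in soma (0.04 ± 0.13). Bid, which links death receptors to mitochondria once cut by caspase-8, averaged 1.21 ± 0.248 CPM in neurites and 1.07 ± 0.113 CPM in soma (0.18 ± 0.21). Bak1 averaged 0.86 ± 0.584 CPM in neurites and 0.897 ± 0.141 CPM in soma (-0.17 ± 0.34).

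**Figure D3:**
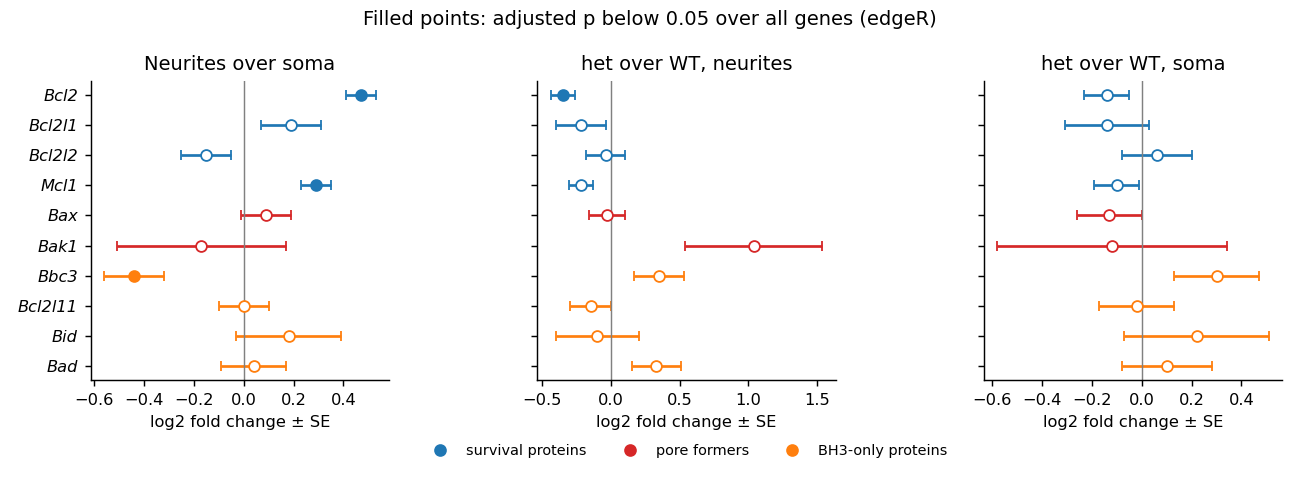
Log2 fold change ± SE of the 10 members for neurites over soma averaged over genotypes (left), het over WT in neurites (middle) and het over WT in soma (right). Filled points passed an adjusted p of 0.05 over all genes, which holds for Bcl2 and Mcl1 (higher) and Bbc3 (lower) on the left, for Bcl2 (lower) in the middle, and for no member on the right.

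Between genotypes, 1 of the 10 members passed in neurites: Bcl2 was lower in het neurites, where 3.27% of all genes passed, 0.494% higher and 2.78% lower. It averaged 156 ± 12.9 CPM in het neurites and 199 ± 16.5 CPM in WT neurites (SD, n = 3 each), and all 3 het libraries lay below all 3 WT libraries. The log2 fold change was -0.35 ± 0.09 (adjusted p = 0.0468, edgeR), close to the threshold. It was called under 5 of 12 alternatives, over which the log2 fold change ran from -0.42 to -0.31 and the adjusted p from 0.0104 to 0.251.

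The call of Bcl2 in neurites was lost without het neurites 2 (adjusted p = 0.174) or 3 (0.177) and without WT neurites 1 (0.148) or 3 (0.0682), with log2 fold changes of -0.33, -0.31, -0.32 and -0.42. It was also lost with DESeq2's size factors (adjusted p = 0.0531) and in a fit of the neurite libraries alone (0.249). The authors' deposited table, from their own comparison of the neurite libraries, gives a log2 fold change of -0.33, a p-value of 0.0187 and a false discovery rate of 0.258 for the Bcl2 transcript. In the authors' deposited table, 3.02% of neurite transcripts and 4.24% of soma transcripts had a false discovery rate below 0.05, and none of them belonged to a member.

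The other members did not pass in neurites. Mcl1 averaged 229 ± 13.7 CPM in het neurites and 266 ± 12.3 CPM in WT neurites, with no overlap, at a log2 fold change of -0.22 ± 0.09 (adjusted p = 0.178, edgeR). Bbc3 averaged 13.4 ± 0.401 CPM in het neurites and 10.5 ± 3.05 CPM in WT neurites (0.35 ± 0.18, adjusted p = 0.269), and passed without WT neurites 2 (0.57, adjusted p = 0.0414). Bad averaged 10.9 ± 1.66 CPM in het neurites and 8.61 ± 0.849 CPM in WT neurites (0.33 ± 0.18, adjusted p = 0.303).

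Bak1 had the largest estimate of the members, on 5 to 46 counts per library. Its values were 0.796, 0.729 and 1.9 CPM in het neurites and 0.35, 1.08 and 0.311 CPM in WT neurites, so that the groups overlapped, and the log2 fold change was 1.04 ± 0.50 (adjusted p = 0.248). Without WT neurites 2 it passed (adjusted p = 0.0408). Over the 12 libraries, 168 counts of Bak1 were given to Bak1-201, annotated as a target of nonsense-mediated decay, and 80 to the protein-coding Bak1-202. For het over WT neurites these transcripts had log2 fold changes of 1.46 ± 0.63 and 0.42 ± 0.76, neither called. Bax averaged 102 ± 10.7 CPM in het neurites and 105 ± 22.4 CPM in WT neurites (-0.03 ± 0.13).

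In soma no member passed between genotypes, and no gene of the whole table did (0% of 15990), against 1464 genes at an unadjusted p under 0.05 and 318 genes called by DESeq2. A fit blocked on replicate number called 520 genes, and again no member. Bcl2 averaged 121 ± 0.707 CPM in het soma and 134 ± 1.19 CPM in WT soma. Its 3 het libraries, from 121 to 122 CPM, lay below its 3 WT libraries, from 133 to 135 CPM, and the log2 fold change of -0.14 ± 0.09 had an adjusted p of 0.688. Bbc3 averaged 17.8 ± 1.82 CPM in het soma and 14.4 ± 1.53 CPM in WT soma, also without overlap (0.30 ± 0.17, adjusted p = 0.647).

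Other cell types moved with the genotype as well. In het neurites 3 of the 7 satellite glial markers and 2 of the 6 tested Schwann cell markers were lower than in WT neurites and none was higher, with median log2 fold changes of -0.66 and -0.82. Of the 5 proliferation markers, 3 were lower and none higher, and their summed level was 235 to 459 CPM in het neurites and 548 to 972 CPM in WT neurites. The neuronal markers had a median of 0.37, with 1 of 10 higher. Not all glial markers lay lower: S100b had 441 ± 62.4 CPM in het neurites and 368 ± 60.9 CPM in WT neurites, and Glul had 523 ± 34.6 CPM in het neurites and 482 ± 92.4 CPM in WT neurites, neither past the test. In soma, where no gene passed, the proliferation markers had a median of -1.13 for het over WT. Their summed level was 172 to 255 CPM in het soma and 434 to 633 CPM in WT soma, without overlap. The soma medians were -0.49 for satellite glial markers (-0.99 to 0.12), -0.34 for Schwann cell markers (-0.80 to 0.20) and 0.18 for neuronal markers. The part of these other cells in the Bcl2 and Bbc3 values of either compartment was not tested. Markers of fibroblasts and of endothelium and pericytes had no call in any comparison. Those of fibroblasts still had a median of -0.61 for het over WT neurites, with a range of -1.31 to 0.78. Their summed level was 696 to 1416 CPM in het neurites and 961 to 2955 CPM in WT neurites, which overlapped. The genes Aif1 and Ptprc of macrophages and Hba-a1, Hbb-bs and Alas2 of blood were not in both tables.

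At the level of single transcripts, Bcl2-201 (7191 bases), Bax-201 and Mcl1-201 were the only transcripts of their genes in both tables. They therefore held all counts of these genes by definition, although Mcl1 has 2 annotated transcripts. Of the 27 member transcripts 24 passed the filter on low counts. Averaged over genotypes, 3 of these 24 passed the test between neurites and soma, where 7.14% of 29102 transcripts did: Bcl2-201 (0.48 ± 0.07), Mcl1-201 (0.30 ± 0.07) and Bbc3-201 (-0.43 ± 0.12). Bcl2-201 alone passed between WT neurites and WT soma (0.57 ± 0.10, adjusted p = 0.00508, edgeR), where 1.58% of transcripts did, and none passed between het neurites and het soma, where 0.512% did. None passed between genotypes, where 1.6% of transcripts did in neurites and 0.0653% in soma, and Bcl2-201 had an adjusted p of 0.0985 in neurites.

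Transcript shares varied more in some genes than in others. Bbc3-201 made up 93.6 ± 0.813% of Bbc3 counts in het neurites, 93.4 ± 1.63% in WT neurites, 92.9 ± 0.427% in het soma and 94.6 ± 1.93% in WT soma. Bcl2l11-205, the long transcript of that gene, made up 87 ± 3.88%, 83.6 ± 2.08%, 87.6 ± 3.3% and 87.3 ± 3.94% in het neurites, WT neurites, het soma and WT soma. For Bad, the minor Bad-204 made up 1.7 ± 0.961% in het soma, on 7, 7 and 1 counts, and 5.64 ± 0.965% in WT soma, on 10, 15 and 13 counts. Bad-205 made up 13.6 ± 1.33% in het neurites, 11.1 ± 2.63% in WT neurites, 11.1 ± 2.79% in het soma and 8.06 ± 1.03% in WT soma. The shares of Bcl2l2-203 spread most in WT cultures, with 30.3 ± 11.4% in neurites and 26.2 ± 8.61% in soma. For Bid, the protein-coding Bid-201 made up 80.6 ± 2.13% in het neurites and 59.4 ± 14.6% in WT neurites, on 9 to 29 counts per library, which leaves its share poorly measured.

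**Figure D4:**
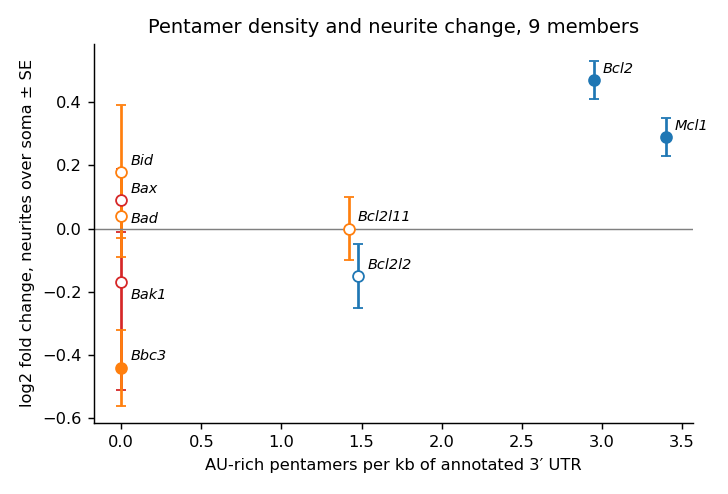
Log2 fold change of neurites over soma ± SE, averaged over genotypes, against the density of the AU-rich pentamer in the annotated 3′ UTR, for the 9 members with a 3′ UTR value. Bcl2 and Mcl1, the members with 2.95 and 3.4 pentamers per kb, have the highest changes, and Bbc3, the lowest, has none.

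Set beside the sequences printed above, the members with the densest pentamers, Bcl2 and Mcl1, were those that were higher in neurites. Over all genes this density did not go along with such a shift: the 1574 transcripts with at least 2.9 pentamers per kb in a 3′ UTR of 1000 bases or more had a median averaged log2 fold change of 0.00, the 5575 with fewer had -0.01, and the 811 with none had -0.05. For het over WT in neurites these medians were -0.02, 0.00 and 0.01.

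The genes whose pattern was most like that of Bcl2 over the 12 libraries, by Pearson's r of log2 CPM among 7153 genes with a mean of at least 10 CPM, were Supt16 (0.983), Cpsf3 (0.980), Zfp704 (0.977), Mios (0.977) and Ctnna1 (0.973). Supt16 encodes a histone chaperone subunit, and it averaged 369 ± 33.4 CPM in het neurites, 467 ± 46.2 CPM in WT neurites, 299 ± 10.7 CPM in het soma and 316 ± 14.4 CPM in WT soma. Among the members, Mcl1 was closest to Bcl2 with r = 0.95, rank 32 of these genes, and Bbc3 was farthest with r = -0.78. The 12 points of each r share their libraries, and with them depth and cell makeup.

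Other genes of the death pathway were read from 3 lists, to be set beside the 7.33% of all genes that were higher and the 4.87% that were lower in neurites. Of 18 further genes, of the BCL2 family or of proteins that interact with it, 15 were tested. Averaged over genotypes, 1 was higher and none lower in neurites. It was Bnip2, which encodes a BCL2-interacting protein and not a family member, at 0.60 ± 0.09 (adjusted p = 0.000773, edgeR). The median log2 fold change of the 15 was 0.06, and 1 of 15 is near the share of all genes. Between genotypes in neurites Bnip2 was also the single gene called, lower in het neurites. It had 17.1, 14.5 and 15.1 CPM in het neurites and 23.9, 25.4 and 25.7 CPM in WT neurites, which did not overlap, and the log2 fold change of -0.69 ± 0.12 (adjusted p = 0.0172) lost its call without het neurites 2 (adjusted p = 0.118) or 3 (0.0957) or WT neurites 3 (0.0655).

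Of the 24 genes of the apoptosome, caspases and inhibitors of apoptosis, 2 were higher and none lower in neurites (median 0.10), a share near that of all genes. Cflar, which encodes the caspase-8 inhibitor c-FLIP, averaged 159 ± 3.35 CPM in het neurites and 91.1 ± 5.62 CPM in het soma, and 223 ± 61.2 CPM in WT neurites and 103 ± 12.7 CPM in WT soma. Its averaged log2 fold change was 0.96 ± 0.11 (adjusted p = 0.000219, edgeR), with no overlap between neurite and soma libraries.

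Of the 22 genes upstream of the family, 4 were lower and none higher in neurites (median -0.08), where 4.87% of all genes were lower. Ngfr, the p75 neurotrophin receptor, averaged 611 ± 119 CPM in het neurites and 954 ± 62.2 CPM in het soma, and 612 ± 64.1 CPM in WT neurites and 882 ± 98.3 CPM in WT soma. Its averaged log2 fold change was -0.59 ± 0.10 (adjusted p = 0.00185, edgeR), without overlap, and the stress kinases Mapk8 and Mapk10 had -0.33 ± 0.07 (adjusted p = 0.00687) and -0.29 ± 0.08 (adjusted p = 0.0315). The call of Mapk10 was lost in 9 of the 12 fits without 1 library, with an adjusted p of up to 0.0835. Between genotypes none of the 22 passed in neurites, and in soma none of any of the lists did.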

How the data were processed

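RNA was measured in 12 libraries, 3 per group. Per the file headers, the deposited tables hold raw counts per Ensembl transcript, 1 table per compartment, with the authors' own het over WT log2 fold changes, p-values and false discovery rates. The tools named in the submitters' processing notes are CASAVA 1.8.2 and edgeR, and the build is mm10 (GRCm38). Which aligner and counter were used is not given in the sources used here, nor is the treatment of reads that fit several transcripts. A further 24 per-sample columns were not used. Counts without a gene name (0.574% to 0.694%) stayed out.

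Counts were summed per gene over the 31420 transcripts in both tables, of which 15990 genes passed filterByExpr, scaled by TMM and fitted by edgeR 4.0.16 (R 4.3.3, limma 3.58.1, robust quasi-likelihood, 1 mean per group, all 12 libraries). P-values were adjusted by Benjamini-Hochberg over all genes tested, at 0.05. The procedure was tested on simulated data. CPM uses TMM-scaled totals, and TPM uses GENCODE M21 lengths (97.61% of 36285 transcripts matched). A count of 0 allows up to 3 counts, 0.0905 to 0.21 CPM, for counting error only. Bcl2, Bcl2l2, Bak1 and Bad overlap annotated neighbours over 558, 594, 357 and 517 exonic bases. Bcl2l11-207 was in the soma table alone and was left out.

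Same-numbered libraries deviated together between WT neurites and WT soma (correlations of 0.579, 0.594 and 0.405 over 7772 genes) and between het soma and WT soma (0.422, 0.559 and 0.215). The main model had no block. Alternatives were DESeq2 1.42.0, its size factors, no filter, a replicate block, the compared groups alone, the full table of a compartment, and leaving out each library. The members and lists were chosen with earlier results of these data known. All members are named, with up to 4 genes past the threshold from each other list (some of these are not reported here), and the 5 genes most like Bcl2.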

Additional observations from a re-analysis of the deposited data

How the results depend on the processing

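Over the 6 comparisons, the 10 members kept their direction and their side of the threshold in 751 results under alternatives, lost a call in 24, gained one in 8 and reversed in 37, and no reversal concerned a called value. The number of members called between het and WT neurites (1) became 0 with DESeq2's size factors, with the compared groups alone and with the compartment's full table, and 0 to 3 without 1 library. Between WT neurites and WT soma (2) it became 1 with those size factors or no filter, 0 with the compared groups alone, and 1 to 3 without 1 library. Between het neurites and het soma (0) it became 1 with either replicate block and with DESeq2. Numbers of genes called moved more. Between het and WT neurites (523) there were 1696 with the replicate block, 0 with the compared groups alone or the full table, 1191 in DESeq2 and 0 to 1767 without 1 library. Between het and WT soma (0) there were 520 with the block, 388 with the compared groups alone or the full table and 318 in DESeq2. Between WT neurites and soma (495) there were 1510 with the block, 1489 with the block within genotype, 40 with the compared groups alone, 1112 in DESeq2 and 93 to 1081 without 1 library. Between het neurites and soma (102) there were 668, 671 and 480 with the block, the block within genotype and DESeq2, and 0 to 191 without 1 library. Averaged over genotypes (1950) there were 3183 and 3066 with these blocks, and 1093 to 2746 without 1 library. With the block, member transcripts called numbered 1 between het and WT neurites and between het neurites and soma, against 0, and 2 between WT neurites and soma, against 1. Without 1 library there were 1 to 2 in WT neurites against soma and 1 to 3 in the average. The cause of these shifts was not tested. Replicate numbers did not pair het neurites with het soma (correlations of 0.205, 0.518 and -0.241) or with WT neurites (0.401, 0.487 and -0.123), so not every library correlated best with its own number. With the block, Bcl2 was called between het neurites and soma (0.36, adjusted p = 0.0272), Bbc3 between WT neurites and soma as given above, and no other member gained or lost a call.

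The reversed values belonged to uncalled members, with Bak1 between het neurites and soma the farthest from 0 (0.41). Without 1 library, log2 fold changes of het over WT neurites ran from -0.11 to 0.02 for Bcl2l2, -0.18 to 0.12 for Bax and -0.34 to 0.08 for Bid. Those of het over WT soma ran from -0.02 to 0.13 for Bcl2l2, -0.12 to 0.08 for Bcl2l11 and -0.11 to 0.25 for Bad. Those of WT neurites over soma ran from -0.12 to 0.19 for Bax and -0.02 to 0.17 for Bcl2l11, and those of het neurites over soma from -0.22 to 0.20 for Bid, -0.18 to 0.66 for Bak1 and -0.12 to 0.04 for Bcl2l11. Bid between het neurites and soma was -0.01 with the block within genotype. Averaged over genotypes, they ran from -0.04 to 0.05 for Bcl2l11, -0.02 to 0.15 for Bad and -0.54 to 0.02 for Bak1, and Bcl2l11 was 0.0047, 0.0001 and 0.0044 with DESeq2's size factors, the block within genotype and DESeq2. Interactions ran from -0.21 to 0.08 for Bcl2l1, -0.14 to 0.26 for Bbc3 and -0.05 to 0.26 for Bax. Depth limits Bak1 and Bid, whose lowest libraries held 5 and 15 counts.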
